A study of Mus musculus with 2 samples.

Results

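The transcripts described here are 10 messenger RNAs other than globin, chosen from those that led groups of red cell barcodes in earlier results of these data: Xpo7, Tmcc2, Trak2, Tent5c, Pabpc1, Apol11b, Gda, Ccndbp1, Cdc25b and Prxl2a. They are 10 of the 32285 genes counted, and all 10 were found in the count tables. They were followed over barcodes in which at least 50% of the unique molecular identifiers (UMIs, each a counted RNA molecule) came from the adult globin genes Hba-a1, Hba-a2, Hbb-bs and Hbb-bt. These globin-rich barcodes were 847 of 1857, with 474 in replicate 1 and 373 in replicate 2. Because the genes were chosen on these same barcodes, their levels are given as a description, with no test.

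The 2 libraries form 1 group: both hold blood of mice with the genotype wild type and the treatment burn/tenotomy, in which a burn and a severed tendon lead to bone forming in soft tissue. Both were enriched on the iChip, a microfluidic cell sorter, and barcoded by 10x Chromium, and the submitters described the cells as cMPCs and blood cells. Age, sex and animal numbers are not stated in the labels, and there is no untreated library. Nothing says that the libraries are from different animals, and their spread may be technical.

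Reticulocytes are young red cells that have lost their nucleus but still hold RNA made earlier. Their RNA is dominated by globin, and the remaining messages are degraded, together with mitochondria and ribosomes, as the cell matures into an erythrocyte.

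Globin-rich barcodes had a median of 5979.5 UMIs in replicate 1 and 6048 in replicate 2, of which a median of only 735 and 710 were not globin. The erythroid genes Alas2 and Slc4a1 were at 21524 and 21924 ppm and at 1461 and 1672 ppm (UMIs per 1000000 non-globin UMIs). Summed markers of leukocytes were at 93.2 and 20.5 ppm, of platelets at 41.4 and 37.5, of mesenchymal or mesothelial cells at 10.4 and 3.41, and of endothelial cells at 5.18 and 3.41. Malat1, a nuclear RNA, was in 8 of the 474 globin-rich barcodes of replicate 1. The other barcodes were split into 767 that were mitochondria-rich (over 20% of UMIs from mitochondrial genes) and 243 remaining ones. The remaining class was not alike in the 2 libraries. In replicate 1, 85 of its 95 barcodes had under 5% globin UMIs and 54 of those 85 held Ptprc, the leukocyte marker CD45. In replicate 2, 117 of its 148 barcodes had 5 to 50% globin and a median of 899 UMIs. The libraries had 0 barcode sequences in common, and doublets were not removed.

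The members lie on 6 chromosomes in the mm10 gene annotation (GENCODE M21), each a protein-coding gene. On the minus strand are Xpo7 (chr14:70654246-70766628), Prxl2a (chr14:40993740-41013788), Tmcc2 (chr1:132356315-132391281), Trak2 (chr1:58900449-58973430), Tent5c (chr3:100451628-100489324), Pabpc1 (chr15:36595661-36609668), Apol11b (chr15:77633946-77643286) and Gda (chr19:21391307-21473445). On the plus strand are Ccndbp1 (chr2:121008403-121016904) and Cdc25b (chr2:131186949-131198497). Xpo7 overlaps Npm2 on its own strand and Dok2 on the other, Prxl2a overlaps Fam213a on its own strand, Tmcc2 overlaps Gm15849 on the other strand and Cdc25b overlaps Spef1 on the other strand. The labels do not state if strand was used in counting, so reads in those stretches are uncertain. Pabpc1 and Apol11b have close relatives in the genome (such as Pabpc4 and Apol11a), between which reads can be split.

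RefSeq promoters (GRCm38.p6, the 250 bases before each annotated start) were matched for 8 members with 14 starts, while Xpo7 and Pabpc1 had no entry. They were searched on both strands for AGATAA, for the like site TGATAA that differs in its first base (both are forms of the site of erythroid GATA factors), for CCACACCC, a form of the site of the red cell factor Klf1, and for the core of the interferon-stimulated response element, which is GAAA followed by any 2 bases and GAAA again. The motifs were picked after the promoters had been seen. The starts of Tmcc2, Apol11b and Gda that held a match are given 5′ to 3′ on the gene's strand with the match in capitals, so that the regulatory letters near these red cell genes can be read. A match on the opposite strand reads as the reverse complement of the motif.
Tmcc2 start 3 (chr1:132367949-132368198, minus): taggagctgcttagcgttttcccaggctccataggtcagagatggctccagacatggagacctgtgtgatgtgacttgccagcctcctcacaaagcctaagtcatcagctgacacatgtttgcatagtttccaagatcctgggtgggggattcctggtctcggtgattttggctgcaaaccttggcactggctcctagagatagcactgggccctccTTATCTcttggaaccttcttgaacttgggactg
Apol11b (chr15:77643287-77643536, minus): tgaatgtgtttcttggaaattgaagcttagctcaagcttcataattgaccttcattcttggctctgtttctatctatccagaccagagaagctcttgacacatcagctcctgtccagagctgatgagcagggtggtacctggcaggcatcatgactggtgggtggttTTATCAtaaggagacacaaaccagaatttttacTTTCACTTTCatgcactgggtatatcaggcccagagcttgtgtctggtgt
Gda (chr19:21472662-21472911, minus): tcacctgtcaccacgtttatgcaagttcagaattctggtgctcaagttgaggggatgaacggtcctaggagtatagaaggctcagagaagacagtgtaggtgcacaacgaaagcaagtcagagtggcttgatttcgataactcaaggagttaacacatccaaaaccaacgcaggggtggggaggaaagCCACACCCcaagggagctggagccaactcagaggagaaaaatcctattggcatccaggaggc
AGATAA was in 1 of the 14 windows and in 9.99% of all 32851 promoter windows in the table. TGATAA was in the Apol11b window and in 7.94% of all, CCACACCC in 1 of 14 against 3.20%, and the interferon core in 1 of 14 against 2.98%. Apol11b was the only member with 2 motifs in its window. The windows of Trak2, Tent5c, Ccndbp1 and Cdc25b held none of the 4 motifs.

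The members were found at very different rates. Tent5c, a poly(A) polymerase that lengthens the tails of messages, was found in 99.2% of globin-rich barcodes of replicate 1 and 97.9% of replicate 2. Pabpc1, the cytoplasmic protein that coats poly(A) tails, was found in 93.7% and 93.0%. Presence of either message therefore separates almost no barcodes, and what varies for them is the amount. Gda, which deaminates guanine to xanthine, was found in 79.5% and 78.6%, and Ccndbp1, a binding partner of D-type cyclins, in 61.2% and 61.1%. Prxl2a, a peroxiredoxin-like redox protein, was found in 50% and 53.1%, and Cdc25b, a phosphatase that activates cyclin-dependent kinases, in 37.1% and 36.5%. The scarcer members were each in under 20% of barcodes. Tmcc2, a coiled-coil protein of the endoplasmic reticulum, was in 18.6% and 15.8%, and Apol11b, of the apolipoprotein L family, in 16.5% and 18.8%. Trak2, an adaptor that links mitochondria to kinesin motors, was in 8.23% and 8.04%, and Xpo7, a nuclear export receptor that acts in erythroblasts during nuclear condensation, in 7.59% and 8.31%. For each of the 10, the exact binomial (Clopper-Pearson) 95% intervals of the libraries overlapped. These intervals cover counting error only, since barcodes of a library share its preparation.

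**Figure D1:**
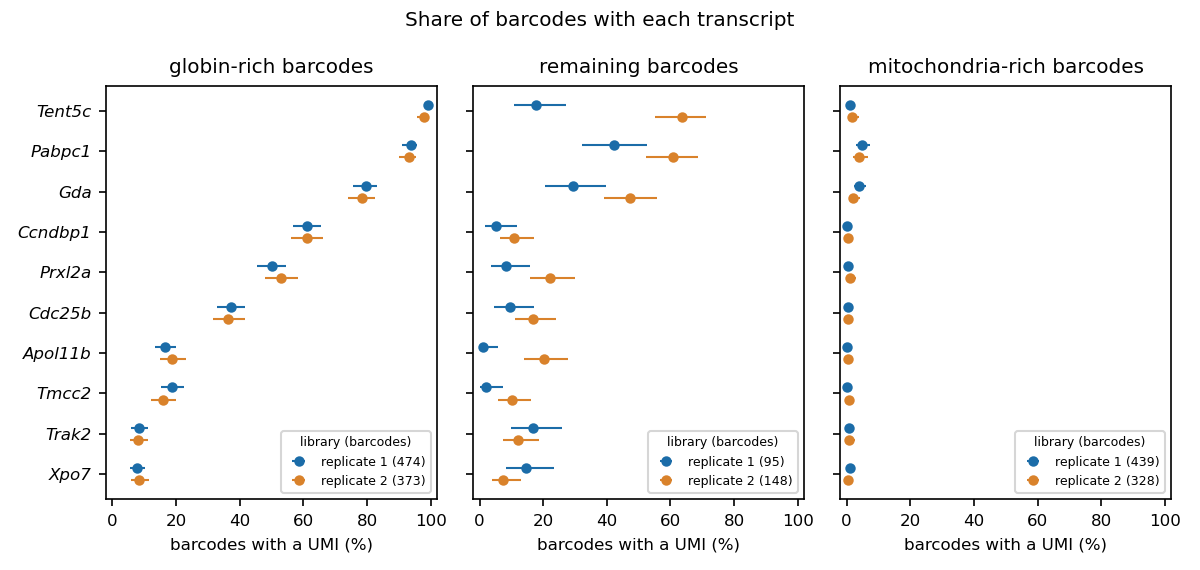
Share of barcodes with at least 1 UMI of each transcript (x axis, percent) in globin-rich, remaining and mitochondria-rich barcodes, with exact binomial 95% intervals; blue is replicate 1 and orange replicate 2. In globin-rich barcodes the libraries nearly coincide, from 99.2% and 97.9% for Tent5c to 7.59% and 8.31% for Xpo7; in remaining barcodes they part, as for Tent5c at 17.9% and 63.5%.

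Mitochondria-rich barcodes were used as a contrast, and whether member UMIs in them were stray RNA was not tested. Their non-globin UMIs (median 781 and 786.5) were 82.9% and 87.6% mitochondrial, so the depth open to other transcripts was lower than in globin-rich barcodes. Pabpc1 was in 4.78% and 3.96% of them and Gda in 3.87% and 2.13%, the highest of the members. Ccndbp1 was in 0 of 439 and 1 of 328, with upper limits of 0.837% and 1.69%. The rates in globin-rich barcodes were above these for every member, though total depth differed (a median of 787 and 793 UMIs in mitochondria-rich barcodes). With globin-rich barcodes thinned to 500 UMIs, Xpo7 was in 1.13% and 1.11% of them, against 1.14% and 0.305% of mitochondria-rich barcodes as found. Trak2 was then at 1.05% and 0.987% against 0.683% and 0.915%. Tmcc2 was at 2.27% and 1.87% against 0.228% and 0.610%, and the latter had an upper limit of 2.19% in replicate 2. The other members stayed well above in both libraries.

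Rates of detection depended on depth. With every globin-rich barcode thinned to 500 UMIs, the expected share was 51.8% and 47.2% for Tent5c, 19.1% and 19.96% for Gda, 8.41% and 8.25% for Ccndbp1 and 1.13% and 1.11% for Xpo7. With thinning to 300 non-globin UMIs, which left out 4 and 14 shallower barcodes, Tent5c was at 94.1% and 92.8%, Pabpc1 at 82.3% and 83.5%, Gda at 53.7% and 54.9%, Ccndbp1 at 34.1% and 35.6% and Prxl2a at 31.98% and 35.6%. A globin-rich barcode held a median of 5 of the 10 transcripts in both libraries. The highest number was 8 in replicate 1 and 9 in replicate 2, and 3 and 2 barcodes held none. Mitochondria-rich barcodes held a median of 0, and remaining ones a median of 1 and 3.

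Levels are in ppm as above, with UMIs summed over the barcodes of a class in each library, and a gene is called higher or lower when the ratio of levels (with 10 added to each) is at least 2-fold the same way in both libraries. They serve to compare classes of barcodes for 1 gene; genes are not ranked against each other by them. In all, 8 of the 10 members were called higher in globin-rich than in remaining barcodes and 0 lower; the rule used these barcodes, so the count is read only as a description. Of 4196 genes tested, 7.03% were called higher and 74.5% lower. With all UMIs as the denominator, Ccndbp1 was still called higher and Tmcc2, Trak2 and Xpo7 were called lower, where 0.357% of all genes were higher and 85.4% lower.

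Tent5c was at 10981 and 10511 ppm in globin-rich barcodes and at 227 and 1120 in remaining ones, ratios of 46.4 and 9.31. Its partner in tail metabolism, Pabpc1, was at 10139 and 9928 against 484 and 1256. For both genes the 2 libraries differed little in globin-rich barcodes and by over 2-fold in the remaining class, whose makeup differed as described above. Ccndbp1 was at 1414 and 1485 against 19.2 and 79.6, ratios of 48.7 and 16.7. Prxl2a was at 2170 and 2423 against 96.1 and 206, and Cdc25b at 748 and 771 against 38.4 and 178. Gda had the smaller ratios of 6.61 and 4.05 (2849 and 2874 against 423 and 703). Within the remaining class it was at 389 and 204 ppm even in barcodes with under 5% globin. Apol11b was the reverse of that pattern: it had 0 UMIs in the 85 and 31 remaining barcodes with under 5% globin, which allows a share of up to 3.53% and 9.68% of them. Its level was 834 and 990 in globin-rich barcodes and 906 in the 117 barcodes of replicate 2 with 5 to 50% globin, but 107 (2 UMIs in 1 barcode) in the 10 such barcodes of replicate 1. Tmcc2 was at 256 and 225 against 111 and 79.6.

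Xpo7 and Trak2 were not called. Xpo7 was at 166 and 174 in globin-rich barcodes against 238 and 56.2 in remaining ones, so the libraries gave opposite directions (ratios 0.708 and 2.78). Trak2 was at 119 in both libraries against 192 and 112 (ratios 0.639 and 1.06). A single remaining barcode of replicate 1, picked out after its values were seen, weighed on both. It had 4717 UMIs, 609 detected genes and 44.5% globin UMIs, just below the 50% limit. It held 48 of the 62 Xpo7 UMIs of its class, while all 474 globin-rich barcodes of that library together held 64. It also held 28 of 29 Tmcc2 UMIs and 30 of 50 Trak2 UMIs. Pabpc1 was at 38 UMIs in it, Tent5c at 19, Prxl2a at 16 and Gda at 9, but Ccndbp1 and Cdc25b were at 1 each and Apol11b at 0. The red cell membrane gene Slc4a1 gave 35 UMIs, Alas2 gave 17, and Ptprc gave 0. The nuclear RNAs Malat1 and Neat1 gave 41 and 18 UMIs, and Sox6, a transcription factor of erythroblasts, gave 21; all globin-rich barcodes of replicate 1 together held 70 Malat1 UMIs (61 of them in a single barcode), 5 of Neat1 and 15 of Sox6. Whether this barcode held 1 cell or several was not tested. Without it, Xpo7 was at 54.3 ppm in the remaining class of replicate 1, a ratio of 2.73, and was called higher, which made 9 of 10. Trak2 was then at 77.6, a ratio of 1.47, and Tmcc2 at 3.88, which is 1 UMI.

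**Figure D2:**
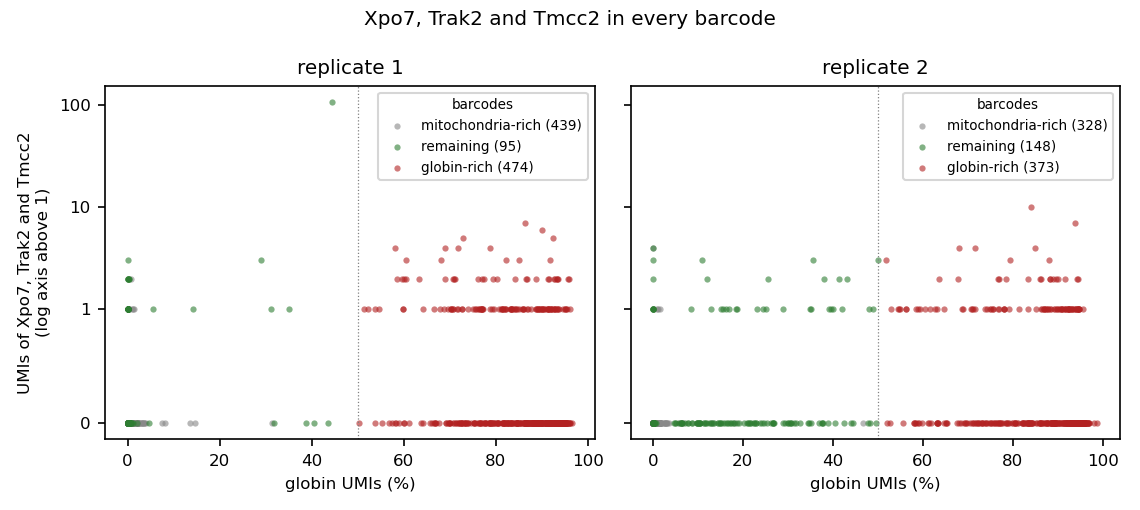
UMIs of Xpo7, Trak2 and Tmcc2 added together (y axis, logarithmic above 1) against the share of globin UMIs (x axis, percent) for every barcode of replicate 1 (left) and replicate 2 (right), coloured by class; the dotted line is the 50% limit. In replicate 1, a single remaining barcode at 44.5% globin stands above all others, with 48, 30 and 28 UMIs of the 3 genes.

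Just inside and outside the limit on globin share few barcodes lay: 12 with 50 to 55% globin and 7 with 45 to 50%, these all from replicate 2. Tent5c was at 5184 ppm in the former and 3713 in the latter, Pabpc1 at 7002 and 3861 and Gda at 2491 and 2228, pooled over libraries. Apol11b was at 539 in the former and 2673 in the latter (8 and 18 UMIs) and Trak2 at 202 and 446 (3 UMIs each).

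Within globin-rich barcodes, total depth and globin share moved together (Spearman's rho across barcodes 0.812 and 0.742), while non-globin UMIs followed depth less (0.342 and 0.336). Gm42418, a locus that overlaps ribosomal RNA, made up 46.3% and 43.0% of all non-globin UMIs. Its part was 54.8% and 54.0% in barcodes with 50 to 80% globin and 35.8% and 34.7% in those with 95% or more. Levels of other genes per non-globin UMI therefore shift upward with globin share. Between barcodes with at least 90% globin and those with 50 to 90%, the median ratio of all 694 genes tested was 1.29 (0.37 on the log2 scale). It was 0.983 with Gm42418 and mitochondrial genes left out of the denominator. Of the 694 genes, 11.8% were called higher and 1.44% lower at high globin share.

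Trak2 was the only member called, and it was lower. In replicate 1 it was at 61.0 ppm (8 UMIs in 173 barcodes) with at least 90% globin and at 149 (38 UMIs in 301 barcodes) below. In replicate 2 it was at 35.6 (4 UMIs in 162 barcodes) and 172 (31 UMIs in 211 barcodes). The ratios of 0.446 and 0.251 put it at percentile 1.15 of all genes tested, and without Gm42418 and mitochondrial genes they were 0.319 and 0.176. Over the bands 50 to 80, 80 to 90 and 90 to 95% globin its level was 208, 96.4 and 66.7 ppm in replicate 1 and 225, 115 and 41.9 in replicate 2. Barcodes with 95% or more held 0 UMIs in both libraries, but 3 UMIs there would be 267 and 176 ppm, so a lower level was not detectable at this depth. Among barcodes with at least 10000 UMIs, Trak2 was at 207 and 220 ppm with under 90% globin and at 78.3 and 35.2 with more. The former rest on 6 and 7 UMIs in 18 and 20 barcodes, the latter on 7 and 3 UMIs in 100 and 103. From 2000 to under 5000 UMIs few barcodes had 90% or more: 7 in replicate 1 held 0 UMIs, and 10 in replicate 2 held 1, which is 359 ppm against 166 below.

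Ccndbp1 went the other way. It was at 624, 1461, 2060 and 2401 ppm over the 4 bands of replicate 1 and at 697, 1593, 1958 and 2588 over those of replicate 2, higher in each successive band. Between the classes above and below 90% globin its ratios were 1.95 and 1.81, under the 2-fold limit and at percentile 75.1 of all genes, so many genes had ratios as large. With Gm42418 and mitochondrial genes left out, the ratios were 1.43 and 1.34. With all UMIs as the denominator they were below 1, at 0.775 and 0.641, as that denominator grows with globin; the median of all genes was then 0.709, and each of the 10 members had a ratio below 1 in both libraries.

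Prxl2a was at 1623, 2099, 2911 and 978 ppm in replicate 1 and at 2016, 2522, 3036 and 706 in replicate 2. It was thus highest at 90 to 95% globin and lowest at 95% or more, a band of 23 and 39 barcodes in which 2 and 7 held it. Above against below 90% globin its ratios were 1.46 and 1.19, but 1.07 and 0.877 without Gm42418 and mitochondrial genes. Among barcodes of 5000 to under 10000 UMIs, Prxl2a was at 2021 and 2342 ppm with under 90% globin and at 1023 and 951 with more, while at 10000 UMIs or more it was at 3803 and 3797 against 3536 and 3246. Cdc25b had ratios of 0.603 and 0.723 above against below 90% globin (519 and 622 against 867 and 864 ppm), at percentile 8.93. From 5000 to under 10000 UMIs its level was 881 and 927 with under 90% globin and 383 and 537 with more. At 10000 UMIs or more it was 519 and 847 against 582 and 668, opposite directions in the libraries. The values of 519 and 847 rest on 15 and 27 UMIs in 18 and 20 barcodes. Apol11b (0.915 and 0.544), Gda (0.908 and 0.726), Xpo7 (0.831 and 0.882), Pabpc1 (0.937 and 0.991) and Tmcc2 (1.02 and 0.864) had ratios near 1 or below. With Gm42418 and mitochondrial genes left out, all of these and Cdc25b were below the median of all genes (0.983), though none was called. Ratios were then 0.670 and 0.401 for Apol11b, 0.663 and 0.536 for Gda and 0.609 and 0.655 for Xpo7. They were 0.684 and 0.732 for Pabpc1, 0.747 and 0.641 for Tmcc2 and 0.440 and 0.534 for Cdc25b. Tent5c (1.15 and 1.34) stood near the median of all genes, and without Gm42418 and mitochondrial genes its ratios were 0.843 and 0.988.

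**Figure D3:**
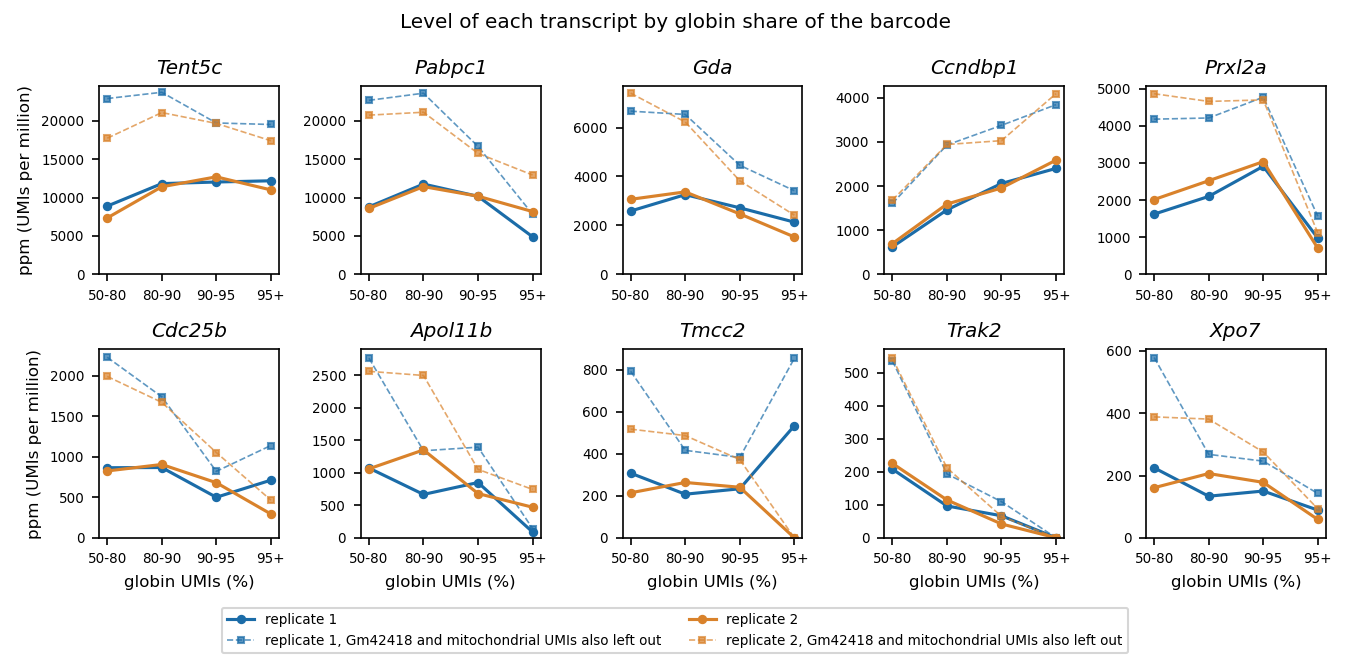
Level of each transcript (y axis, ppm, from 0, own scale in each panel) in globin-rich barcodes grouped by their share of globin UMIs (x axis); blue is replicate 1 and orange replicate 2, solid lines are ppm of non-globin UMIs and dashed lines leave out Gm42418 and mitochondrial UMIs as well. Ccndbp1 is higher in each band (624 to 2401 and 697 to 2588 on the solid lines), Trak2 lower in each of the first 3 (208 to 66.7 and 225 to 41.9) with 0 UMIs in the last, whose depth could not show a lower level, and Prxl2a is lowest at 95% or more.

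The split by depth gave 0 members called between barcodes with at least 5000 UMIs and those with fewer. Globin share rose with depth, as given above, so the split did not measure depth alone. Of the 694 genes, 16.9% were called higher and 0% lower, and the median ratio of all genes was 1.52. Ccndbp1 came closest, at 1799 and 1821 ppm against 818 and 913 (ratios 2.18 and 1.98). It was found in 45.4% and 43.2% of barcodes with 2000 to under 5000 UMIs and in 78.0% and 86.2% of those with at least 10000. Prxl2a had ratios of 1.85 and 1.63. Trak2 had ratios of 0.569 and 0.580, at percentile 0.865, and was called lower (0.414 and 0.423) when Gm42418 and mitochondrial genes were left out of the denominator. Gda was in a similar share of barcodes at every depth of 2000 UMIs or more, from 75.6% to 81.8%.

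Some members were spread evenly over barcodes and others were concentrated. The measure was the dispersion of a gene's UMIs between barcodes, the mean squared difference from the number that its share of non-globin UMIs predicts, divided by that number; 1 is random sampling. Its median was 1.33 over 318 genes in replicate 1 and 1.36 over 272 in replicate 2 with at least 50 UMIs. Apol11b had 5.61 and 5.89, at percentiles 93.4 and 95.2. The 10% of barcodes with most Apol11b held 88.5% and 86.2% of its UMIs. Its highest barcodes had 23 and 32 UMIs, and the 43 and 28 barcodes with at least 3 UMIs held 85.4% and 79.3% of all. Most globin-rich barcodes, 396 of 474 and 303 of 373, had no Apol11b UMI.

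The Apol11b-high barcodes had Prxl2a at 3132 and 3309 ppm, against 2058 and 2397 in barcodes without Apol11b. Tent5c was at 10829 and 9368 against 10932 and 10530, and Ccndbp1 at 1320 and 1413 against 1401 and 1433, so neither differed much. In the 35 and 42 barcodes with 1 or 2 Apol11b UMIs, Prxl2a was at 1871 and 1807, below its level in those without. In the barcodes with at least 3 Apol11b UMIs, the median globin share was 85.4% and 83.4%, against 87.1% and 89.0% in those without. Median non-globin UMIs were 1009 and 948 in the former against 722 and 711. The part of this greater depth in the content of the Apol11b-high barcodes was not tested.

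Pabpc1 had the next highest dispersion, 5.45 and 4.84, although it was in nearly every barcode; its highest barcodes had 61 and 57 UMIs. Prxl2a had 2.98 and 2.86, and the top 10% of barcodes held 52.9% and 50.8% of its UMIs. Tent5c had 1.97 and 2.05 and Xpo7 1.76 and 2.15, with Xpo7 highest at 7 and 10 UMIs in a barcode. Gda (1.73 and 1.41), Cdc25b (1.74 and 1.395) and Ccndbp1 (1.38 and 1.43) were nearer the median of all genes. Tmcc2 had the lowest value with this expectation, 1.12 and 1.11, with at most 2 UMIs in any barcode. The measure tends to grow with a gene's mean count, so scarce genes lie nearer 1, and with expectation from all UMIs Ccndbp1 was lowest (1.19 and 1.38, Tmcc2 1.72 and 1.65). Trak2, with 46 and 35 UMIs, was under the minimum of 50.

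**Figure D4:**
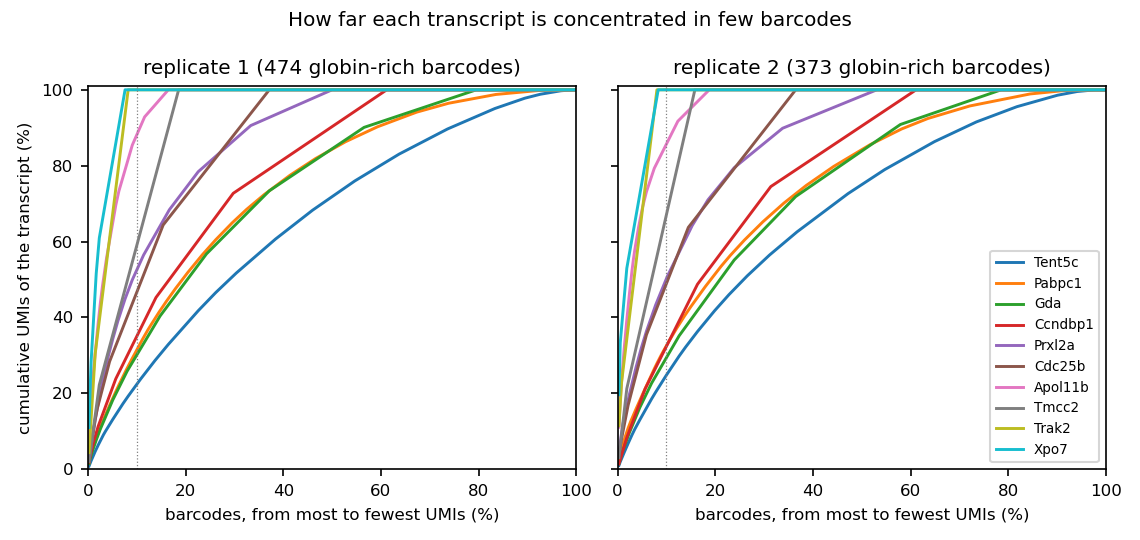
Cumulative share of each transcript's UMIs (y axis, percent) over globin-rich barcodes ordered from most to fewest UMIs of that transcript (x axis, percent), replicate 1 left and replicate 2 right; the dotted line marks the top 10% of barcodes. At that line Apol11b is at 88.5% and 86.2% and Tent5c at 22.6% and 25.2%; rare transcripts such as Xpo7 and Trak2 reach 100% early because few barcodes hold them.

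Detection of pairs was compared by the odds ratio of finding both genes, combined over 4 bands of total UMIs in each library. Of the 37 member pairs with a value in both libraries, 10 had an odds ratio of at least 2 in both and 0 had 0.5 or less. Among all 80957 pairs of genes found in at least 5% of barcodes, 9.77% and 0.466% did so. Trak2 and Prxl2a were the only pair called both within quartiles of non-globin UMIs and among barcodes of at least 100 detected genes; 33 pairs had a value in the latter. Prxl2a was in 82.1% of 39 barcodes with Trak2 and 47.1% of 435 without in replicate 1, and in 90% of 30 and 49.9% of 343 in replicate 2 (odds ratios 5.04 and 8.79). Barcodes with Trak2 also had more non-globin UMIs, a median of 1028 and 1163.5 against 717 and 679, at a lower globin share of 78.6% and 78.2% against 87.7% and 89.2%. Within quartiles of non-globin UMIs the odds ratios were 2.92 and 3.99.

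Xpo7 paired with the same genes: its odds ratios were 3.16 and 2.47 with Trak2 and 3.07 and 2.71 with Prxl2a. Within quartiles of non-globin UMIs these were 2.34 and 1.102, and 1.72 and 1.31, and were no longer called. Only 8 and 5 barcodes held both Xpo7 and Trak2. The pairs of Tent5c with Pabpc1 (36.2 and 16.8), Gda (12.1 and 14.6) and Ccndbp1 (4.67 and 2.93) rest on the 4 and 8 barcodes without Tent5c, which had few detected genes (medians 77.5 and 61.5 against 128 and 131). With barcodes of at least 100 detected genes only, 2 pairs were called, Trak2 with Prxl2a and Trak2 with Xpo7, against 6.51% of all pairs. The other called pairs were Pabpc1 with Gda, Prxl2a and Tmcc2, and Prxl2a with Gda. Pabpc1 was missing from 30 and 26 barcodes, whose median non-globin UMIs were 509 and 486. Ccndbp1 and Prxl2a differed in their course over globin share. Their odds ratios were 0.777 and 0.988, below the medians of 1.34 and 1.46 over all pairs. They were thus found together no more often than their separate rates predict within depth bands. Within quartiles of non-globin UMIs their odds ratios were 0.609 and 0.777. Tmcc2 had odds ratios between 0.823 and 1.24 with Trak2, Ccndbp1, Cdc25b, Prxl2a, Xpo7 and Apol11b in both libraries. These too lay below the medians over all pairs.

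**Figure D5:**
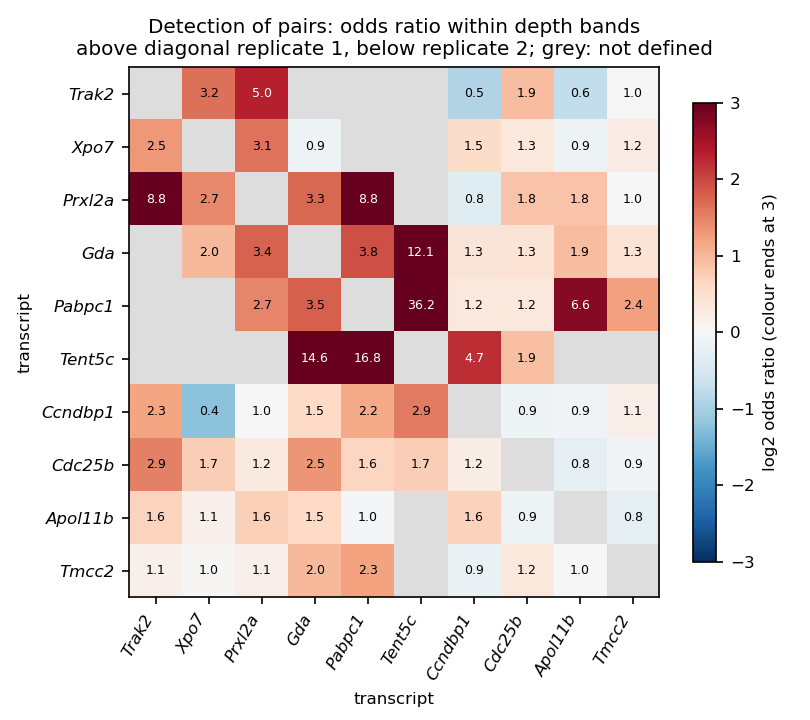
Odds ratio of finding a pair of transcripts in the same globin-rich barcode, combined over 4 depth bands, with replicate 1 above and replicate 2 below the diagonal; colour is the log2 odds ratio and grey cells have no value. Trak2 with Prxl2a is at 5.04 and 8.79, while the row and column of Tmcc2 lie near 1 except with Pabpc1 (2.35 and 2.32) and Gda (1.32 and 1.95).

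For each member, the genes most like it were found by Pearson's r between residuals (UMIs against those predicted from non-globin depth) over globin-rich barcodes, taking the lower of the 2 libraries. All points share a library and its depth range, and r is a description. Over 86320 pairs among 416 genes, the 99th percentile of this r was 0.226. Prxl2a had 0.45 with Eif5, a translation initiation factor. Eif5 was in 69.6% and 71.7% of barcodes with Prxl2a and in 36.3% and 28.6% of those without. Barcodes with Prxl2a had a median of 871 and 851 non-globin UMIs and those without 632 and 557.

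Trak2 was most like Slc4a1, the band 3 anion exchanger of the red cell membrane (0.24), and Trim10, a RING-finger protein of erythroid cells (0.23). Slc4a1 was at 2865 and 3275 ppm in barcodes with Trak2 and at 1283 and 1428 in those without. Trim10 was at 1294 and 1367 against 405 and 417. Ccndbp1 was most like Alas2, the first enzyme of haem synthesis in red cells (0.30), and Gabarapl2, an autophagy protein (0.27). Gabarapl2 was at 3050 and 3272 ppm with Ccndbp1 and at 2216 and 1770 without. Tent5c was most like Alas2 (0.29) and Mkrn1, a ubiquitin ligase (0.27). Levels did not follow r for Alas2. In the 181 and 115 barcodes with at least 10 Tent5c UMIs, it was at 21227 and 21058 ppm, against 21784 and 22569 in the others. Mkrn1 was at 13080 and 14446 against 11795 and 12207. By r alone, Alas2 was the closest gene to both Ccndbp1 and Tent5c, and Trim10 was among those closest to both Trak2 and Apol11b.

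The other members had r below the 99th percentile of all pairs. Pabpc1 was closest to Ube2b (0.19) and Azin1 (0.19), Xpo7 to St3gal5 (0.17) and Cir1 (0.17), and Gda to Slc25a37, the mitochondrial iron importer mitoferrin (0.16), and Dcaf12 (0.14). Cdc25b with Cdr2 (0.12) and Rpl27a (0.07), Apol11b with Trim10 (0.11), and Tmcc2 with Cd47 (0.09) and Memo1 (0.08) had weak values in these sparse counts.

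In each list of relatives of the members, most genes had fewer than 20 UMIs in globin-rich barcodes, summed over libraries. Members included, 16 of 30 cell cycle genes and 10 of 15 peroxiredoxin and thioredoxin genes had any UMI there. Among 24 nuclear transport receptors, Xpo7 included, 9 had any UMI there and 12 could be compared with remaining barcodes. Of these 12, 0 were higher and 9 lower, a share close to the 74.5% of all genes called lower. The shares lower in the lists of mitochondrial transport and poly(A) genes were also close to it. Kpna1 was the only one besides Xpo7 with at least 20 UMIs (21 and 7). Of the TMCC family, Tmcc2 was higher and Tmcc1 and Tmcc3 lower. Of 8 mitochondrial transport genes, 4 were tested and Trak1, Rhot1 and Kif5b were lower. Of 12 apolipoprotein L genes, only Apol11b had enough UMIs to test.

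The counts in this paragraph include any members on a list. Members were chosen on these same barcodes, so the counts are read only as a description. Of the genes of poly(A) tails, 4 of 16 tested were higher, where 7.03% of all genes were. These were the members Tent5c and Pabpc1, with its paralogue Pabpc4 (161 and 184 ppm in globin-rich barcodes), and Paip2, a binding partner of Pabpc1 (238 and 232). The other 12 were lower. Of 6 genes tested on the purine list, Gda was higher and 4 (Adk, Nt5c2, Pnp and Xdh) were lower. Nt5c3, the pyrimidine nucleotidase of red cells (388 and 471 ppm), was also on that list and was higher. Among cell cycle genes, 5 of 10 were higher (Ccndbp1, Cdc25b, E2f2, Mki67 and Ube2c, a mitotic ubiquitin-conjugating enzyme at 1059 and 949 ppm) and 3 lower (Ccnd3, Cdk6 and Cdkn1a). Mki67 was in only 1.90% and 1.61% of barcodes, and 25 of its 39 UMIs in replicate 1 came from a single barcode. Of the peroxiredoxin and thioredoxin genes, 5 of 11 were higher (Prxl2a, Prdx2, Prdx3, Txn2 and Txnrd2) and 3 lower (Prdx5, Txnip and Txnrd1), with Prdx2, the main red cell peroxiredoxin, at 3090 and 3522 ppm. Of 38 late red cell genes tested, 30 were higher and 1 lower (Aqp1, a water channel). The median log2 ratio was 2.79 for that list, 3.25 for the members and -2.62 for all 4196 genes.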

How the data were processed

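Single-cell RNA of 2 libraries was analysed from deposited counts: raw UMI counts per gene and barcode, with no normalization. Per the file headers and the submitters' processing notes, Cell Ranger 7.1.0 made them; Seurat 5 and the mm10 build are also named there, Seurat with no role. Barcode calling and any removal of doublets before deposit are not stated. All 1857 deposited barcodes were kept, with 3967318 and 3329292 UMIs in replicates 1 and 2, at least 500 and 501 per barcode. The scarcest member, Trak2, had 46 and 35 UMIs in globin-rich barcodes, which limits the precision of its ratios.

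UMIs were summed per class and library, divided by UMIs outside the 4 globin genes, and compared as ratios with 10 ppm added (ppm, UMIs per 1000000 such UMIs), for genes with at least 20 UMIs in the barcodes compared. There is no test or p-value. Members, related-gene lists and thresholds were chosen with earlier results of these data known. Text names all members, up to 4 related genes per list with at least 20 UMIs in globin-rich barcodes, and the 2 genes most like each member (some items are not reported here); other names were chosen after their values were seen. Shares have exact binomial 95% intervals, which cover counting error only. Analyses ran in Python 3.11.15 with numpy 2.4.6, pandas 2.3.3 and scipy 1.17.1, and were tested on simulated data. Alternatives covered globin limit, barcode and gene filters, denominator, pseudocount, depth bands, splits and leaving out a library.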

Additional observations from a re-analysis of the deposited data

How the results depend on the processing

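Of the members called higher than in remaining barcodes (8), leaving out a library gave 8 to 9 (10.7% and 18.6% of all genes). The count was 1 per all UMIs (Ccndbp1), with Tmcc2, Trak2 and Xpo7 then lower (85.4% of all genes). It was 8 with a 70% globin limit, with at least 100 genes per barcode, with other gene minimums and without Gm42418 and mitochondrial genes, 7 with a pseudocount of 100, and 9 against remaining barcodes under 5% globin or without the barcode richest in Xpo7 (both chosen after seeing the data). Members called with globin share (1) were 1 to 1 without a library. Of all genes, 5.01% were lower without replicate 1 and 4.61% without replicate 2. Members called were 0 with a 70% limit, 0 with a pseudocount of 100 and 7 per all UMIs (all lower, with 12.8% of all genes). They were 2 with a split at 80% (Ccndbp1 higher, with 20.7% of all genes) and 3 at 95%. At 95%, Trak2, Apol11b and Prxl2a were lower, where 25.6% of all genes were. Trak2 was lower from 0 UMIs, too shallow to show a lower level. Members called with depth (0) were 1 and 1 without a library. Xpo7 was higher without replicate 1, where 35.9% of all genes were, and Ccndbp1 without replicate 2, where 29.0% were. With at least 100 genes, 1 was called (Ccndbp1, with 16.7% of all genes higher). Per all UMIs, 6 were called (10.8% of all genes lower). Without Gm42418 and mitochondrial genes, 1 was called (Trak2, with 1.01% of all genes lower). Called pairs (10) were 12 to 15 with a single library (20.6% and 27.6% of all pairs), 2 with at least 100 genes and 5 in bands of non-globin UMIs (5.68%). The median dispersion of members was 1.95 and, with expectation from all UMIs, 3.71. The causes of these differences were not tested, beyond the all-UMI denominator, which grows with globin. Detection shares moved for 10 of 10 members on thinning. No paired analysis was possible because both libraries belong to 1 group.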
